A study of Mus musculus with 12 samples.

Results

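The genes described here code for the constitutive proteasome, the protease of every cell that degrades proteins tagged with ubiquitin. They were chosen by symbol: every gene whose array annotation begins with Psma, Psmb, Psmc, Psmd or Psme followed by a digit, leaving out Psmb8, Psmb9 and Psmb10, which belong to the immunoproteasome. The rule found 41 of the 18193 genes that had a probe set with a single symbol. Each gene was read from its brightest probe set by the mean of the 12 arrays, and all values are log2 intensities as deposited. Of the 41 genes, 31 code for a subunit of the 20S core or of the 19S regulatory particle that is used in all cells. The others were 3 activator genes, 3 assembly chaperones of the 19S particle, the germ cell subunit Psma8, the thymus subunit Psmb11 and 2 genes, Psmc3ip and Psme3ip1, that share the symbol stem but code for no subunit.

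The core of the proteasome is a barrel of stacked rings. The outer rings of alpha subunits gate the entry, and the inner rings of beta subunits hold the active sites. The 19S particle sits on the barrel end, where its ATPases unfold the substrate and its non-ATPase subunits bind and remove ubiquitin, and activators of the PA28 and PA200 kind can take its place. When proteasome activity is short, cells raise all subunit genes together through the transcription factor Nfe2l1, while under interferon the catalytic beta subunits are replaced by those of the immunoproteasome.

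The arrays came from livers of male Balb/c mice that were obtained at 8 weeks of age, before treatment. The study concerned lnc-LFAR1, a liver-enriched long noncoding RNA, in fibrosis caused by carbon tetrachloride (CCl4). In the shLFAR1+CCl4 group mice received 5% CCl4 in olive oil (0.3 ml/kg, intraperitoneally, 3 times per week) and a lentivirus, Lenti-shLFAR1, that carries a short hairpin RNA against lnc-LFAR1. The NC+CCl4 group received the same CCl4 and the control lentivirus Lenti-NC, the shLFAR1 group oil and Lenti-shLFAR1, and the NC group oil and Lenti-NC. The virus went into the tail vein after 2 weeks and treatment continued for 4 weeks, 10 mice were randomised to each group, and 3 livers per group were put on arrays. All 12 mice therefore carried a lentivirus, these CCl4 and oil experiments used a single hairpin, and the virus reaches no defined cell type. The level of lnc-LFAR1 itself was not analysed here, since no probe set is annotated with it.

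Hepatocyte markers, which check the labelled tissue, had a mean log2 value of 12.50 to 12.79 in shLFAR1+CCl4 livers, 12.51 to 12.66 in NC+CCl4 livers, 12.63 to 12.77 in shLFAR1 livers and 12.69 to 12.78 in NC livers, so that all NC+CCl4 arrays lay below all NC arrays. In NC+CCl4 against NC 1 of 13 was called higher and 2 lower, with a median change of -0.03, so the lower mean was not shared evenly by the list. Pck1 measured 10.6, 11.8 and 10.4 in NC+CCl4 livers, against 12.5, 12.3 and 12.8 in NC livers. Hpx went the other way, at 13.8, 13.9 and 14.0 in NC+CCl4 livers, against 13.5, 13.5 and 13.4 in NC livers. On the first principal component, with 56.3% of the variance, replicates 1, 2 and 3 of shLFAR1+CCl4 scored -6.80, -9.66 and 39.2, and those of NC+CCl4 scored 43.0, 34.8 and 48.8, so that shLFAR1+CCl4 replicate 3 sat with NC+CCl4. NC+CCl4 replicate 1 stood apart with its Gapdh 3′ probe set 0.716 log2 units above the 5′ one, where the remaining arrays had -0.205 to 0.033. The labels name a labelling kit for whole transcripts, so what this difference says of RNA quality is not settled. For the pairs of groups that include NC+CCl4, numbers of called proteasome genes are given below with and without these 2 arrays. For the effect of CCl4 under the hairpin virus, the count of genes below 0 is also given without shLFAR1+CCl4 replicate 3. The other counts of direction and of overlap were not repeated without these arrays. In NC+CCl4 against NC, markers of other cells moved strongly: 11 of 17 macrophage markers were called higher and 1 lower, and 11 of 14 stellate cell markers, 14 of 19 cell cycle genes, 11 of 21 interferon targets and 2 of 12 lymphocyte markers were called higher. The mean log2 value of the macrophage markers was 7.10 to 8.39 in shLFAR1+CCl4 livers, 8.05 to 8.79 in NC+CCl4 livers, 6.36 to 6.59 in shLFAR1 livers and 6.31 to 6.66 in NC livers. That of the stellate cell markers was 7.57 to 8.72 in shLFAR1+CCl4 livers, 8.84 to 8.95 in NC+CCl4 livers, 6.82 to 7.45 in shLFAR1 livers and 7.05 to 7.22 in NC livers. The part of these lists in the results below was not tested, and in whole liver fewer cells of a type and less RNA per cell cannot be told apart.

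Proteasome genes were among the more abundant transcripts of the liver. Of the 41 genes 38 lay above the median level of all genes (5.59), and all 31 subunits of every cell lay above the 75th percentile (7.63), the lowest of them at 8.50. The alpha ring genes were Psma1 to Psma7, the structural beta genes Psmb1, Psmb2, Psmb3 and Psmb4, the catalytic beta genes Psmb5, Psmb6 and Psmb7, the ATPases Psmc1 to Psmc6, and the non-ATPase subunits Psmd1, Psmd2, Psmd3, Psmd4, Psmd6, Psmd7, Psmd8, Psmd11, Psmd12, Psmd13 and Psmd14. The chaperones were Psmd5, Psmd9 and Psmd10, and the activators Psme1, Psme3 and Psme4. Psma8 and Psmb11, which belong to germ cells and to the thymic epithelium, had low mean values of 4.10 and 3.91. The SD of a gene between replicate arrays was 0.105 log2 units at the median of the 41 genes, against 0.164 for all genes. The range of the 4 group means was 0.237 log2 units at the median of the proteasome genes and 0.247 for all genes.

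**Figure D1:**
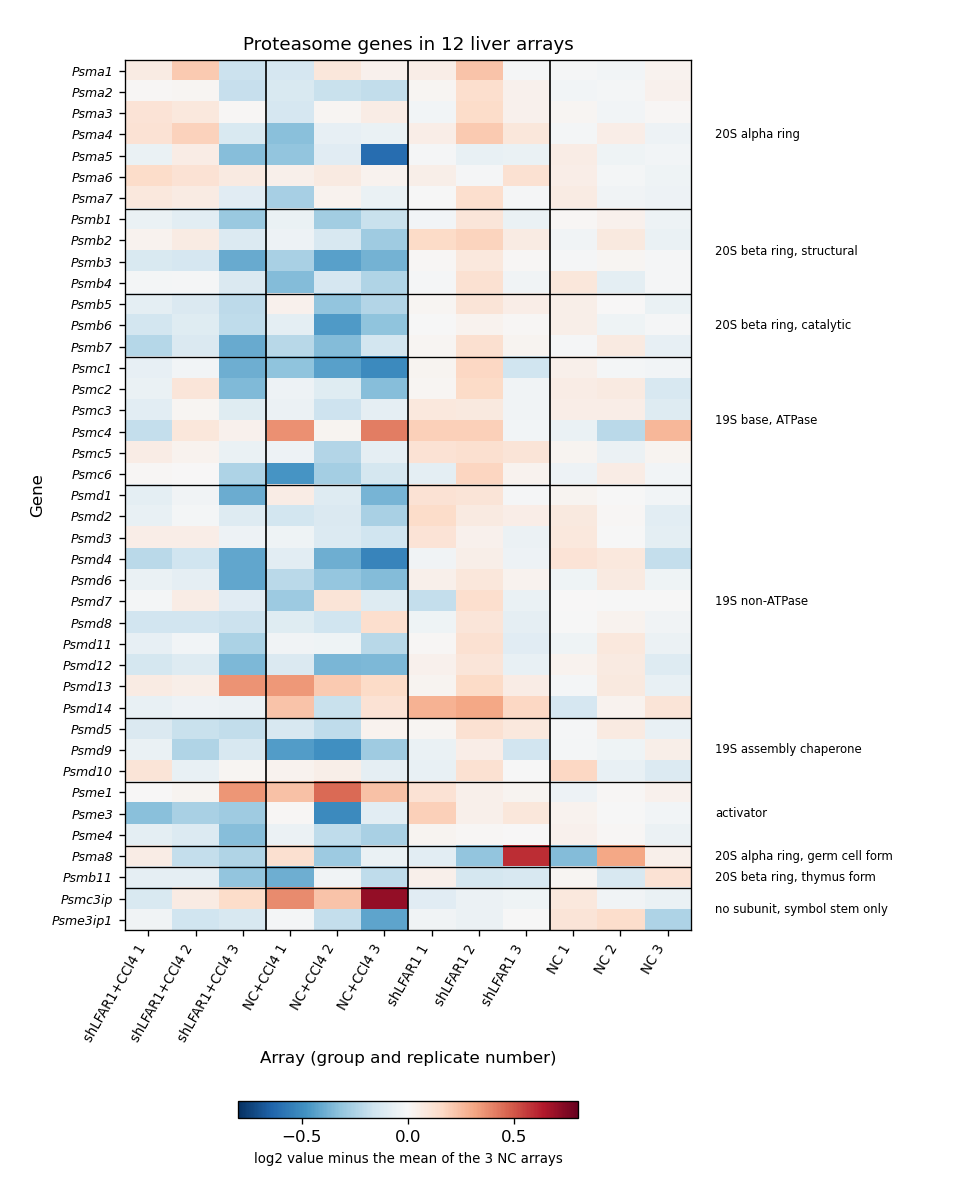
Log2 value of each of the 41 proteasome genes (rows, by subcomplex) in each of the 12 arrays (columns, by group and replicate number), minus the mean of the 3 NC arrays. Most rows are pale blue in the NC+CCl4 columns and in shLFAR1+CCl4 replicate 3, the opposite colour stands at Psmc3ip, Psme1, Psmd13 and Psmc4, and the strongest colours at single arrays of Psmc3ip, Psma5 and Psma8.

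NC+CCl4 against NC gives the effect of CCl4 in mice with the control virus. The proteasome genes lay slightly lower with CCl4. The log2 change was below 0 in 34 of 41 genes (82.9%), where 58.5% of all genes were below 0, and its median was -0.15 for the proteasome genes and -0.05 for all genes. Limma called 4 of the 41 genes (9.76%), and it called 13.1% of all 18193 genes, so calls were no more frequent among proteasome genes than elsewhere. The calls were 3 lower (Psmb3, Psmc1 and Psmd9; 5.41% of all genes were called lower) and 1 higher (Psmc3ip; 7.66% of all genes were called higher). An unadjusted p under 0.05 was found for 15 of the 41 genes and for 27.1% of all genes. The changes were small, between -0.42 and 0.44 log2 units, and for 40 of the 41 genes the whole 95% interval of the change lay within 1.6-fold either way, which held for 76.2% of all genes.

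Psmb3 codes for a structural subunit of the beta ring without proteolytic activity. Its log2 values were 10.31, 10.13 and 10.19 in NC+CCl4 replicates 1, 2 and 3, and 10.56, 10.58 and 10.56 in NC replicates 1, 2 and 3. All NC+CCl4 arrays lay below all NC arrays. Psmb3 fell 1.28-fold, by a log2 change of -0.36 ± 0.09 (SE from 3 arrays in each group, limma adjusted p = 0.0208). In shLFAR1+CCl4 livers it stood at 10.45, 10.43 and 10.16, and in shLFAR1 livers at 10.58, 10.65 and 10.57, so that shLFAR1+CCl4 replicate 3 was at the level of the NC+CCl4 arrays and replicates 1 and 2 lay between both levels. A further probe set of Psmb3 had a log2 change of -0.43 (adjusted p = 0.134 over all probe sets).

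Psmc1 is an ATPase of the 19S base (Rpt2) whose tail helps to open the gate of the core. It measured 9.40, 9.29 and 9.21 in NC+CCl4 livers, against 9.76, 9.70 and 9.69 in NC livers. The groups did not overlap, and Psmc1 fell 1.34-fold (-0.42 ± 0.12, adjusted p = 0.0328). The values were 9.65, 9.70 and 9.33 in shLFAR1+CCl4 livers and 9.74, 9.89 and 9.56 in shLFAR1 livers. Here too replicate 3 of shLFAR1+CCl4 was the lowest of its group, at a value inside the range of the NC+CCl4 arrays. Psmd9 codes for p27, a chaperone that brings ATPases together while the 19S base is built and leaves before the particle is complete. It measured 8.04, 8.00 and 8.20 in NC+CCl4 livers, against 8.47, 8.46 and 8.54 in NC livers, again without overlap, and fell 1.33-fold (-0.41 ± 0.10, adjusted p = 0.0192). In shLFAR1+CCl4 livers Psmd9 stood at 8.43, 8.25 and 8.36, above every NC+CCl4 array, and in shLFAR1 livers at 8.43, 8.54 and 8.33. Its other probe sets, with mean values of 4.97 and 2.87, had log2 changes of -0.30 and 0.11 and were not called.

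Psmc3ip was the gene called higher, and despite its symbol it codes for a partner of the meiotic recombinases. Its log2 values were low, at 5.31, 5.16 and 5.64 in NC+CCl4 livers, against 5.02, 4.91 and 4.88 in NC livers. The groups did not overlap, and Psmc3ip rose 1.35-fold (0.44 ± 0.13, adjusted p = 0.0473). It measured 4.81, 5.00 and 5.08 in shLFAR1+CCl4 livers and 4.85, 4.89 and 4.90 in shLFAR1 livers. A further probe set of this gene, at a mean of 2.91, was called higher as well (0.97, adjusted p = 0.0498 over all probe sets). The mean log2 value of 19 cell cycle genes moved beside it, at 8.06, 5.82 and 7.94 in NC+CCl4 livers against 4.57 to 4.71 in NC livers, and its part in the change of Psmc3ip was not tested.

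**Figure D2:**
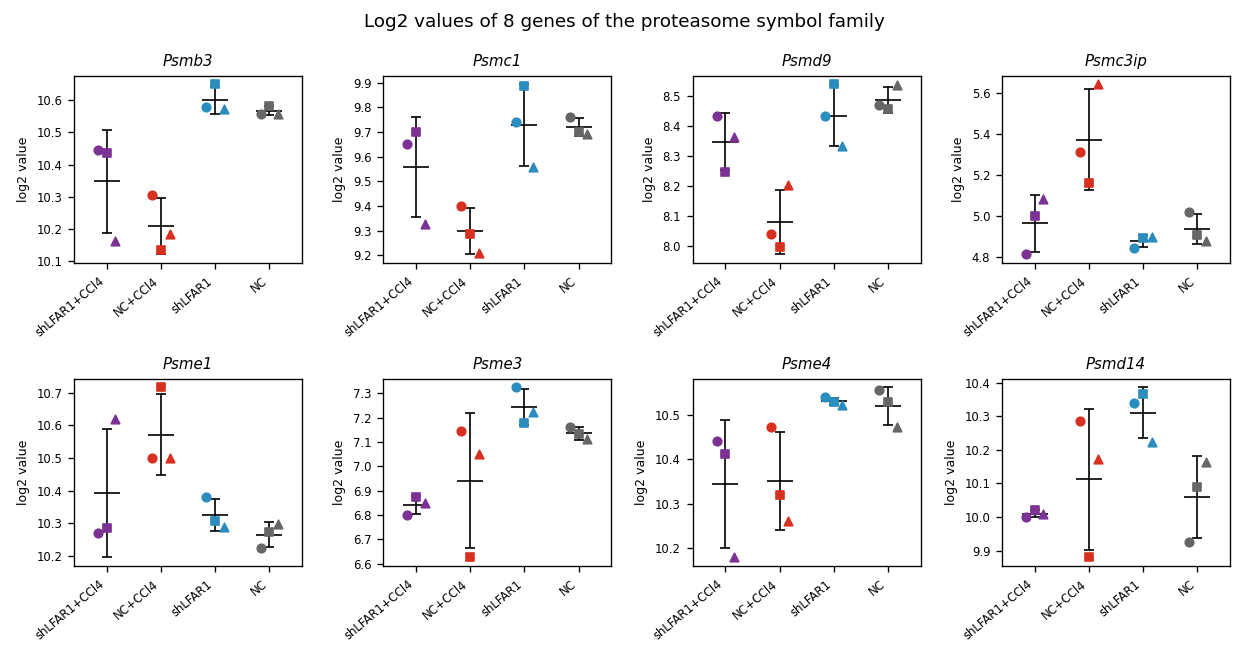
Log2 values (y axis, with a separate scale in each panel that does not start at 0) of Psmb3, Psmc1, Psmd9, Psmc3ip, Psme1, Psme3, Psme4 and Psmd14 in the 4 groups (x axis). Points are arrays, shaped by replicate number (circle 1, square 2, triangle 3), and bars are the mean ± SD of 3 arrays. In the panels of Psmb3, Psmc1 and Psmd9 all NC+CCl4 points lie below all NC points.

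Calls depended on single arrays. By limma none of the 41 genes was called without NC replicate 1, 2 or 3, where 6.94%, 7.26% and 8.93% of all genes were. Without NC+CCl4 replicate 3 only Psmd9 was called (9.09% of all genes), and without shLFAR1 replicate 1 only Psmb3 and Psmd9 were (10.9% of all genes). Leaving out NC+CCl4 replicate 2 gave calls of Psma5, Psmb4, Psmc3ip and Psmd9 (13.8% of all genes), so that Psmb3 and Psmc1 lost theirs. Without NC+CCl4 replicate 1 there were 7 calls, all lower (12.1% of all genes were called), and without both that array and shLFAR1+CCl4 replicate 3 there were 10 calls, 9 lower and 1 higher (16.7% of all genes).

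By subcomplex, the structural beta genes had a median log2 change of -0.21, the catalytic beta genes of -0.24, the ATPases of -0.14, the non-ATPase subunits of -0.10 and the alpha ring genes of -0.10. Within the ATPases Psmc6 had -0.29 (adjusted p = 0.105), and Psmc4 had 0.27 (adjusted p = 0.256), the opposite sign. Among the non-ATPase subunits the lowest was Psmd4, a ubiquitin receptor (-0.34, adjusted p = 0.0957), followed by Psmd6 (-0.29) and Psmd12 (-0.28), and the highest was Psmd13 (0.24, adjusted p = 0.183). In the alpha ring the changes lay between -0.34 (Psma5, adjusted p = 0.112) and 0.05 (Psma6). Groups of arrays did not overlap for 14 of the 41 genes in the lower direction, where 15.8% of all genes were separated this way, and for 3 genes in the higher direction, where 13.8% of all genes were.

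The choice of probe set changed which genes were called. The 41 genes had 87 probe sets, and 46 of these were not used above. Of the 46, 35 had a log2 change below 0, where 60.4% of all probe sets did, and 4 were called with p adjusted over all probe sets, where 8.50% of all probe sets were. For Psma6 the second probe set of similar level had -0.36 (adjusted p = 0.0226), whereas the one used had 0.05. For Psma7 a second probe set had -0.45 (adjusted p = 0.0442), and the one used had -0.10. For Psmd4 both went the same way, at -0.48 (adjusted p = 0.0191) and -0.34. The other called probe set was that of Psmc3ip given above.

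**Figure D3:**
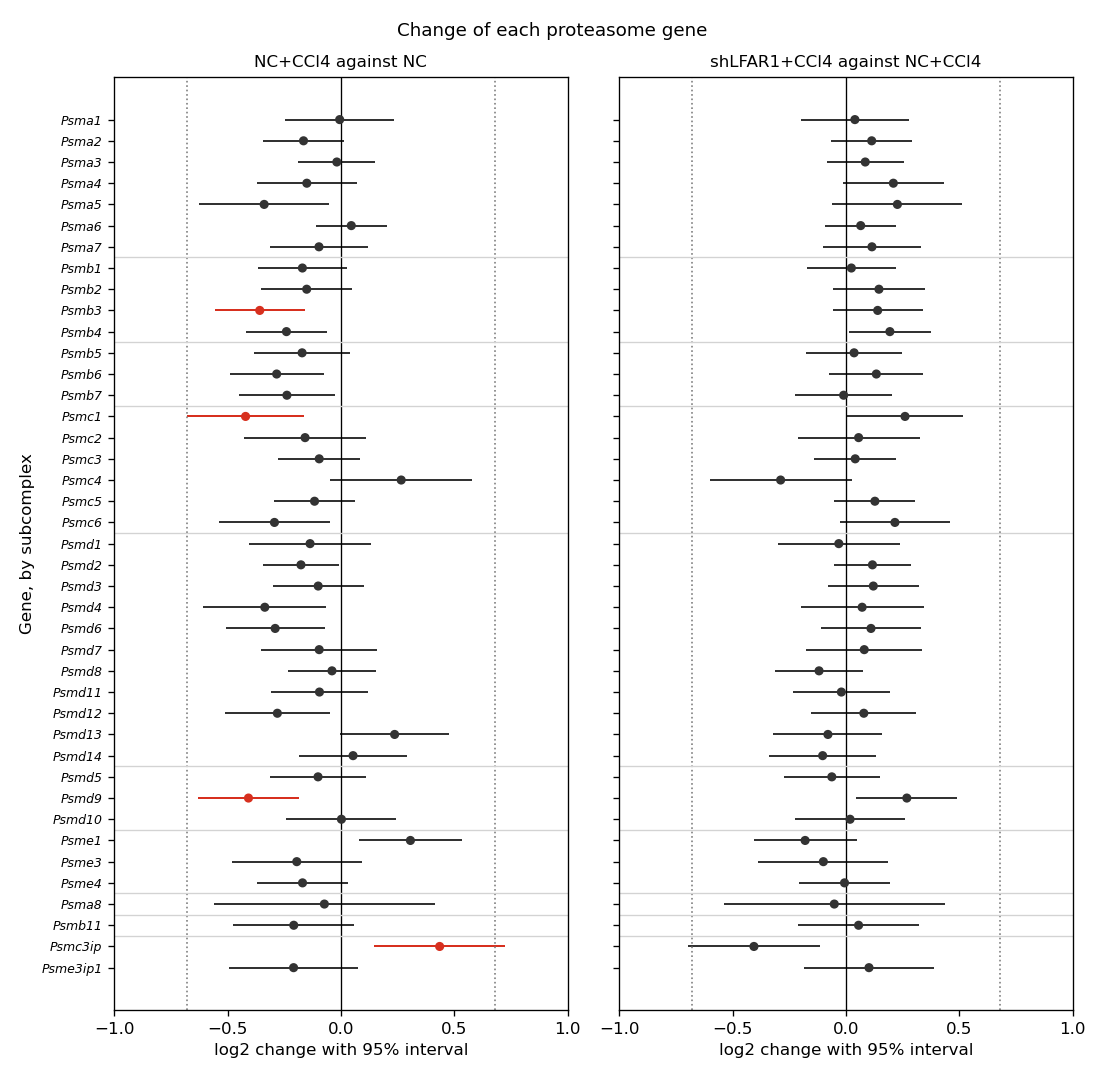
Log2 change (points) with its 95% interval from limma (lines) for each of the 41 genes (y axis, by subcomplex) in NC+CCl4 against NC (left) and shLFAR1+CCl4 against NC+CCl4 (right). Red marks the 4 called genes, Psmb3, Psmc1, Psmd9 and Psmc3ip, and the dotted lines stand at 1.6-fold either way.

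The active sites of the core lie in Psmb5, Psmb6 and Psmb7, which cut after hydrophobic, acidic and basic residues. Psmb5 measured 10.36, 10.00 and 10.09 in NC+CCl4 livers, against 10.37, 10.32 and 10.27 in NC livers, so that NC+CCl4 replicate 1 was at the NC level and the other 2 arrays were below it (-0.17 ± 0.10, adjusted p = 0.277). Psmb6 measured 10.46, 10.08 and 10.21 in NC+CCl4 livers, against 10.58, 10.50 and 10.53 in NC livers, without overlap (-0.28 ± 0.09, adjusted p = 0.0658). Psmb7 measured 9.62, 9.50 and 9.69 in NC+CCl4 livers, against 9.84, 9.91 and 9.78 in NC livers, also without overlap (-0.24 ± 0.10, adjusted p = 0.129). None of the 3 passed the test, and the intervals of their changes allow at most 0.49 log2 units lower and 0.04 higher. Psmb6 passed in 5 of 26 alternatives, among them quantile normalization (adjusted p = 0.0327), and both Psmb6 (-0.39, adjusted p = 0.00987) and Psmb5 (-0.28, adjusted p = 0.0444) passed without NC+CCl4 replicate 1. In shLFAR1+CCl4 livers Psmb5 stood at 10.24, 10.20 and 10.11, Psmb6 at 10.39, 10.44 and 10.33, and Psmb7 at 9.61, 9.73 and 9.44. In shLFAR1 livers Psmb5 stood at 10.33, 10.43 and 10.37, Psmb6 at 10.53, 10.56 and 10.54, and Psmb7 at 9.86, 9.97 and 9.86. For all 3 genes every shLFAR1+CCl4 array thus lay below every shLFAR1 array, as it did for 11.7% of all genes. By limma none of the 3 was called in that comparison (adjusted p = 0.495, 0.580 and 0.245 for Psmb5, Psmb6 and Psmb7).

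Of the immunoproteasome genes that replace these subunits, Psmb9 was called higher. Psmb8, Psmb9 and Psmb10 had log2 changes of 0.77 (adjusted p = 0.0847), 1.03 (adjusted p = 0.0408, called, 2.04-fold) and 0.36 (adjusted p = 0.324) in NC+CCl4 against NC, and all 3 were highest in NC+CCl4 replicate 2. Without that array the differences were 0.36, 0.60 and 0.03. Within each array the difference of the paired log2 values was taken, a quantity that compares arrays and not the levels of both genes. Psmb8 minus Psmb5 was -1.41, 0.13 and -1.18 in NC+CCl4 livers, against -1.84, -1.52 and -1.91 in NC livers. Psmb9 minus Psmb6 was -1.56, -0.03 and -1.58 in NC+CCl4 livers, against -2.43, -2.24 and -2.44 in NC livers, and Psmb10 minus Psmb7 was -0.90, 0.32 and -0.81 in NC+CCl4 livers, against -0.92, -1.05 and -1.23 in NC livers. In all 3 pairs every NC+CCl4 array lay above every NC array, and replicate 2 lay furthest. The mean differences between the groups were 0.94, 1.31 and 0.60 log2 units, each with a two-sided exact permutation p of 0.1, below which 3 arrays per group cannot go, and an adjusted p of 0.3 over 12 tests. Without NC+CCl4 replicate 2 they were 0.46, 0.80 and 0.21 log2 units. In shLFAR1+CCl4 against shLFAR1 the mean differences were 0.53, 0.57 and 0.67 log2 units (exact permutation p of 0.2, 0.2 and 0.1, adjusted p of 0.4, 0.4 and 0.3). There Psmb10 minus Psmb7 did not overlap, at -0.47, -0.69 and -0.27 in shLFAR1+CCl4 livers against -1.01, -1.23 and -1.21 in shLFAR1 livers. The other pairs overlapped. The interferon targets also had their highest mean in NC+CCl4 replicate 2, at 8.73, with 7.72 and 7.24 in replicates 1 and 3, against 6.70 to 6.87 in NC livers, and their part in these differences was not tested.

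**Figure D4:**
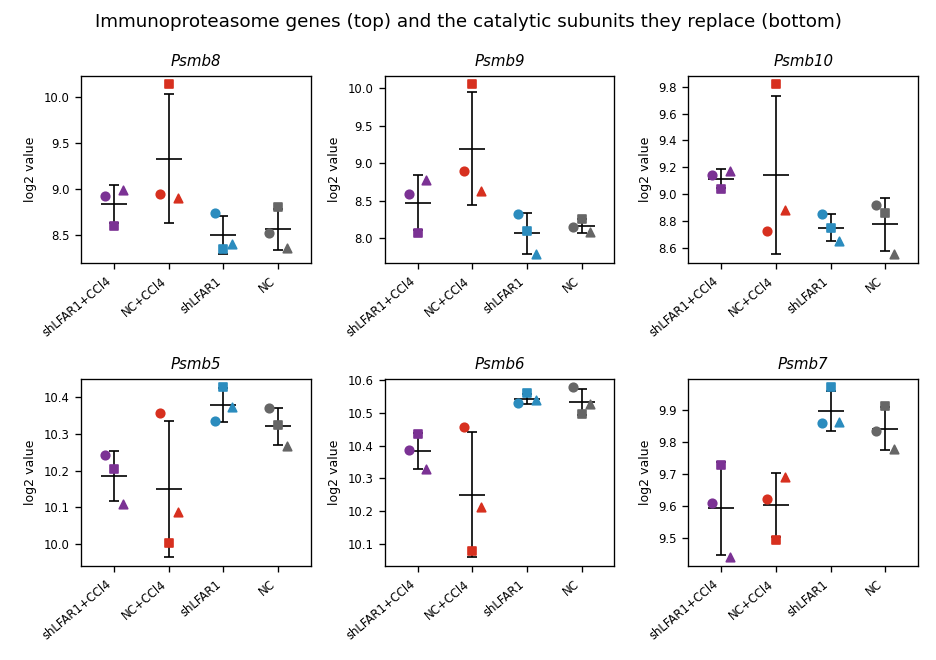
Log2 values (y axis, separate scales that do not start at 0) of the immunoproteasome genes Psmb8, Psmb9 and Psmb10 (top row) and of the catalytic genes Psmb5, Psmb6 and Psmb7 whose products they replace (bottom row) in the 4 groups (x axis). Points are arrays, shaped by replicate number (circle 1, square 2, triangle 3), and bars are the mean ± SD of 3 arrays. NC+CCl4 replicate 2 is the highest array in the top panels and the lowest of its group in the bottom panels.

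The activators differed among themselves. Psme1, the alpha subunit of the interferon-inducible PA28 ring, measured 10.50, 10.72 and 10.50 in NC+CCl4 livers, against 10.22, 10.27 and 10.30 in NC livers. The groups did not overlap, and the change of 0.31 ± 0.10 missed the threshold (adjusted p = 0.0703). It passed without shLFAR1+CCl4 replicate 3 (adjusted p = 0.0219). In shLFAR1+CCl4 livers Psme1 stood at 10.27, 10.29 and 10.62, and in shLFAR1 livers at 10.38, 10.31 and 10.29, so that replicate 3 of shLFAR1+CCl4 was as high as the NC+CCl4 arrays and replicates 1 and 2 were at the level of the oil-treated livers. Psme3, the nuclear PA28 gamma, measured 7.14, 6.63 and 7.05 in NC+CCl4 livers, against 7.16, 7.13 and 7.11 in NC livers, with overlap (-0.19 ± 0.13, adjusted p = 0.370). Psme4, or PA200, which serves histone degradation in the male germ line, measured 10.47, 10.32 and 10.26 in NC+CCl4 livers, against 10.56, 10.53 and 10.47 in NC livers, where the highest NC+CCl4 array and the lowest NC array met (-0.17 ± 0.09, adjusted p = 0.249). Psme2, the partner of Psme1, is annotated on a probe set that it shares with the near-identical Psme2b, so its values cannot be assigned to Psme2.

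Genes around the proteasome were read from lists of known parts of the pathway. Of 13 measured assembly chaperones, inhibitors and receptors 1 was called in NC+CCl4 against NC, Ecpas, an adaptor that takes the holoenzyme apart, which fell by 0.47 log2 units (adjusted p = 0.0162), and the median of the list was -0.10. The core assembly chaperone Pomp had -0.15 (adjusted p = 0.326). Of 8 measured transcription factors of the proteasome genes and their helpers 2 were called. Ngly1, the glycanase that Nfe2l1 needs for its activation, fell by 0.37 log2 units (adjusted p = 0.0260), and Nfe2l1 itself had -0.18 (adjusted p = 0.561). Nfe2l2, the factor of the oxidative stress response that can raise some proteasome genes, measured 9.85, 9.71 and 10.02 in NC+CCl4 livers, against 8.67, 8.82 and 8.70 in NC livers, and rose 2.19-fold (1.13 ± 0.18, adjusted p = 0.00222). The mRNA of Nfe2l2 changed in the direction opposite to most proteasome genes, and its part in their changes was not tested. Of 8 measured genes for ubiquitin handling the shuttle factor Ubqln2 alone was called (0.34, adjusted p = 0.0369), and of 12 heat shock genes Dnajb1 alone, which fell by 1.08 log2 units (adjusted p = 0.0365).

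The promoters of the genes were searched for motifs of factors known to act on proteasome genes or on interferon and cell cycle targets. RefSeq promoter sequences (GRCm38.p6) were found for 34 of the 41 genes, 37 promoters in all, and the 250 bases before each start were searched on both strands for 8 motifs. The antioxidant response element core TGACNNNGC, the element of Nfe2l1 and Nfe2l2, was in 5 of 37 promoters (13.5%), those of Psmb5, Psmb6, Psmc6, Psmd9 and Psmd12, and in 10.2% of all 32851 promoters. The CCAAT box CCAAT was in 15 (40.5%) against 33.8% of all promoters, the GC box GGGCGG in 20 (54.1%) against 32.7%, and the Ets site CCGGAAGT in 6 (16.2%) against 2.88%. The interferon response element core was in 3 (8.11%) against 2.98%, and the nuclear respiratory factor site in 1 (2.70%) against 0.782%. The cyclic AMP response element TGACGTCA and the E2F site TTTGGCGC were in 0 of 37, and in 1.55% and 0.417% of all promoters. Member promoters also held more G and C, with a median of 57.6% against 52.4%, which bears on GC-rich motifs such as GGGCGG and CCGGAAGT. A match describes letters and shows no binding. The 150 bases before the start are printed for the 3 genes called lower and for the 2 catalytic genes with an antioxidant element, as the strand of the gene. Capitals mark CCAAT in Psmb3, CCGGAAGT (read on the other strand) in Psmc1, and TGACNNNGC in Psmd9, Psmb5 and Psmb6. In Psmd9 the capitals also cover an overlapping GGGCGG on the other strand.
Psmb3 (chr11:97703284-97703433, plus strand): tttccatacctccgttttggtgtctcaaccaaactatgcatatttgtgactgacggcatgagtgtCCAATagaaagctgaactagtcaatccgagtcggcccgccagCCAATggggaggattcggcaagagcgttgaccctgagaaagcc
Psmc1 (chr12:100110052-100110201, plus strand): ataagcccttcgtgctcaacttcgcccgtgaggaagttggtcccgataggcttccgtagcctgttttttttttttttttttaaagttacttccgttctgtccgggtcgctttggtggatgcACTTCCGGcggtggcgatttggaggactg
Psmd9 (chr5:123228040-123228189, plus strand): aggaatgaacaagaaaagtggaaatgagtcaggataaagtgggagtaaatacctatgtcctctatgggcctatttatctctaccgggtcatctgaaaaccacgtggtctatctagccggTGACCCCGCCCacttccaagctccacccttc
Psmb5 (chr14:54617996-54618145, minus strand): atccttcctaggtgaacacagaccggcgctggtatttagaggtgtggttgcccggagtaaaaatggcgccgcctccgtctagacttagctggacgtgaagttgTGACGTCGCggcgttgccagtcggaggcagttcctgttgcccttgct
Psmb6 (chr11:70525207-70525356, plus strand): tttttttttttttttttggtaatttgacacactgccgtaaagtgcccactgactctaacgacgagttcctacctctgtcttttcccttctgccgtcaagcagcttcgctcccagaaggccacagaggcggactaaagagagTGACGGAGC

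With CCl4 given to both groups, shLFAR1+CCl4 livers were then set against NC+CCl4 livers for the effect of the hairpin. The comparison shares the NC+CCl4 arrays with that against NC, so opposite signs in both are partly built in. No proteasome gene was called by limma, where 0.291% of all genes were. An unadjusted p under 0.05 was found for 4 of the 41 genes and for 14.2% of all genes. The log2 change was above 0 in 28 genes and below 0 in 13, where 47.1% of all genes were below 0, with a median of 0.06 against 0.01 for all genes, and for 40 of 41 genes its 95% interval lay within 1.6-fold either way, against 83.3% of all genes. All 7 alpha ring genes and all 4 structural beta genes were above 0, and the 3 activators were below 0. The 3 genes with the smallest p were Psmc3ip (-0.41 ± 0.13, adjusted p = 0.181), Psmd9 (0.27 ± 0.10, adjusted p = 0.249) and Psmb4, a structural beta subunit (0.19 ± 0.08, adjusted p = 0.303). Psmb4 measured 11.40, 11.40 and 11.30 in shLFAR1+CCl4 livers, against 11.06, 11.28 and 11.17 in NC+CCl4 livers, without overlap. In shLFAR1 livers it stood at 11.40, 11.54 and 11.39, and in NC livers at 11.50, 11.33 and 11.40. Without overlap were 4 of the 41 genes in the higher direction (7.20% of all genes) and 1 in the lower direction (5.11% of all genes).

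Without shLFAR1+CCl4 replicate 3 and NC+CCl4 replicate 1, limma called 3 proteasome genes in this comparison, Psmb3 and Psmc1 higher and Psme1 lower, with 8.47% of all genes called, and the median change was 0.15. Among the genes around the proteasome only Nfe2l2 was called, which fell 2.19-fold in shLFAR1+CCl4 livers (-1.13 ± 0.18, adjusted p = 0.0206). It measured 8.52, 8.43 and 9.23 there, all below the NC+CCl4 arrays, and 8.90, 8.97 and 9.13 in shLFAR1 livers. Cell cycle genes had a median log2 change of -2.27 in this comparison and macrophage markers of -0.78, with none called, and their part in the changes of the proteasome genes was not tested.

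The effect of CCl4 was also measured under the hairpin virus, in shLFAR1+CCl4 against shLFAR1, whose arrays are not those of NC+CCl4 against NC. None of the 41 genes was called by limma, where 0.407% of all genes were and 0.0824% were called lower. An unadjusted p under 0.05 was found for 6 of the 41 genes and for 10.8% of all genes. The log2 change was below 0 in 35 genes (85.4%), where 56.9% of all genes were, and its median was -0.13 against -0.03 for all genes. Without shLFAR1+CCl4 replicate 3, 31 genes were below 0 (75.6%, against 53.4% of all genes), with a median of -0.07 against -0.01 for all genes. Without overlap were 17 genes in the lower direction, where 11.7% of all genes were, and 0 in the higher direction, where 8.41% of all genes were. For 40 of 41 genes the 95% interval lay within 1.6-fold either way, against 85.7% of all genes. The smallest p belonged to Psmb7 (-0.30 ± 0.10, adjusted p = 0.245), Psme3 (-0.40 ± 0.13, adjusted p = 0.254) and Psmb3 (-0.25 ± 0.09, adjusted p = 0.315). Psme3 measured 6.80, 6.87 and 6.85 in shLFAR1+CCl4 livers, against 7.32, 7.18 and 7.22 in shLFAR1 livers. These groups were well apart, and with array weights Psme3 was called (-0.42, adjusted p = 0.0440). Psme4 measured 10.44, 10.41 and 10.18 in shLFAR1+CCl4 livers, against 10.54, 10.53 and 10.52 in shLFAR1 livers (-0.19 ± 0.09, adjusted p = 0.481), again without overlap.

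In oil-treated livers, shLFAR1 against NC gives the effect of the hairpin without CCl4. None of the 41 genes was called, and 0% of all genes were. By limma 1 of the 41 genes and 2.77% of all genes had an unadjusted p under 0.05. Changes lay between -0.08 and 0.25 log2 units with a median of 0.04 (0.00 for all genes), which was 0.01 without shLFAR1 replicate 2 and 0.02 without NC replicate 3, 33 genes were above 0 and 8 below 0 (49.8% of all genes), and all 41 intervals lay within 1.6-fold either way, against 90.9% of all genes. The smallest p belonged to Psmd14, the subunit that cuts ubiquitin chains off the substrate. It measured 10.34, 10.37 and 10.22 in shLFAR1 livers, against 9.92, 10.09 and 10.16 in NC livers, without overlap (0.25 ± 0.11, adjusted p = 1.00). Psmb2, a structural beta subunit, measured 10.11, 10.13 and 10.02 in shLFAR1 livers, against 9.93, 10.04 and 9.91 in NC livers, with overlap (0.13 ± 0.09). The ATPase Psmc5 measured 10.03, 10.04 and 10.02 in shLFAR1 livers, against 9.94, 9.87 and 9.94 in NC livers, without overlap (0.12 ± 0.08). Of the 41 genes 3 did not overlap in the higher direction, where 6.01% of all genes did not, and 0 in the lower direction, where 4.76% of all genes did not.

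The CCl4 response with shLFAR1 minus the CCl4 response with NC, the interaction, was called for none of the 41 genes and for 0.022% of all genes. An unadjusted p under 0.05 was found for 2 of the 41 genes and for 9.51% of all genes, the difference was below 0 in 17 genes (48.9% of all genes) with a median of 0.01, and 37 intervals lay within 1.6-fold either way, against 65.2% of all genes. The smallest p belonged to Psmd14 (-0.35 ± 0.15, adjusted p = 0.489), Psmd9 (0.32 ± 0.14, adjusted p = 0.505) and Psmc4 (-0.41 ± 0.20, adjusted p = 0.557). Psmd14 measured 10.00, 10.02 and 10.01 in shLFAR1+CCl4 livers and 10.29, 9.88 and 10.17 in NC+CCl4 livers. The ATPase Psmc4 measured 9.51, 9.79 and 9.73 in shLFAR1+CCl4 livers, 10.07, 9.72 and 10.11 in NC+CCl4 livers, 9.89, 9.89 and 9.68 in shLFAR1 livers, and 9.64, 9.49 and 9.97 in NC livers. Its values overlapped between all groups. The mean over the 41 genes in each array summarises the pattern, at 9.44, 9.45 and 9.32 in shLFAR1+CCl4 livers, 9.40, 9.33 and 9.34 in NC+CCl4 livers, 9.51, 9.57 and 9.49 in shLFAR1 livers, and 9.49, 9.50 and 9.45 in NC livers. By this mean no CCl4 array lay above an oil-treated array, but shLFAR1+CCl4 replicate 2 (9.4515) and NC replicate 3 (9.4518) were nearly equal. Over the 31 subunits of the 20S core and 19S particle alone, CCl4 and oil arrays overlapped. There shLFAR1+CCl4 replicate 2 (10.18) lay above NC replicate 3 (10.15). By both means shLFAR1+CCl4 replicate 3 was the lowest of all arrays.

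**Figure D5:**
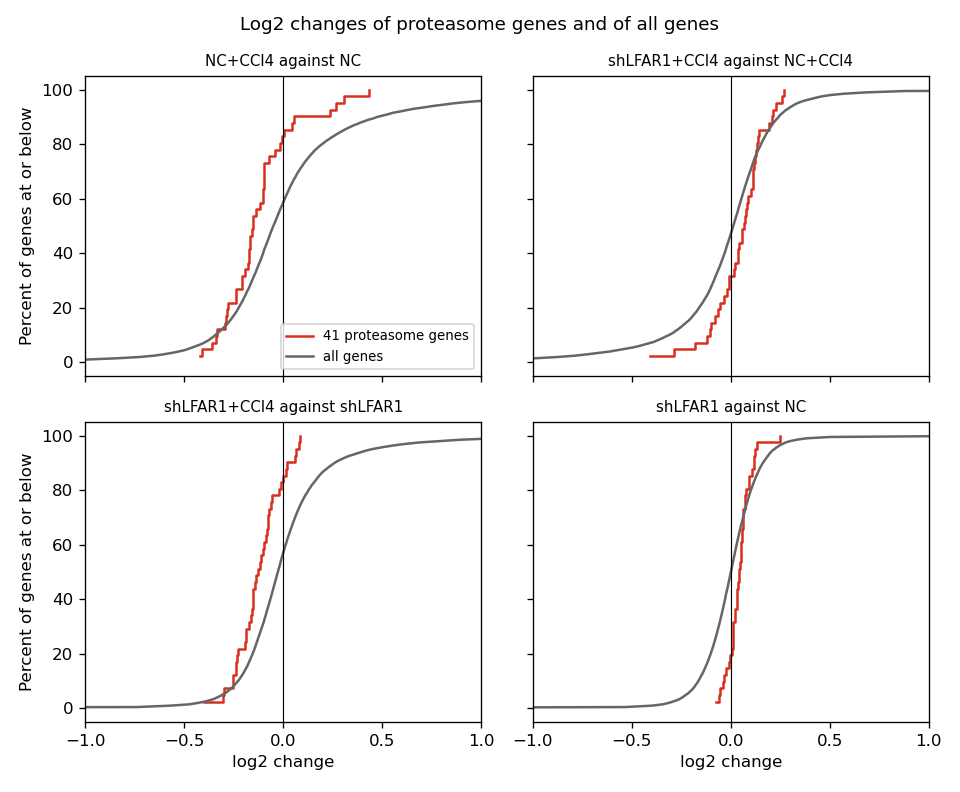
Percent of genes (y axis) at or below a log2 change (x axis) for the 41 proteasome genes (red) and for all 18193 genes (grey) in the 4 comparisons of groups. The red curve is left of the grey at its middle in both comparisons of CCl4 with oil, with medians of -0.15 and -0.13, and its tails are shorter than those of all genes.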

How the data were processed

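RNA of 12 mouse livers was measured on Affymetrix Mouse Genome arrays, 3 livers in each of 4 groups. The deposited table holds log2 values per probe set (1.81 to 14.5), which the authors summarised and normalised. The method is not given in the sources used here, and depth has no meaning for arrays, so their number limits the precision. The table has 45101 probe sets, of which 64 are controls, 34958 carry 1 symbol, 932 several and 9211 none. Probe sets with 1 symbol were kept, and each gene was represented by its brightest probe set on average, giving 18193 genes. Groups came from the sample labels, which call the arrays biological replicates.

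All genes were fitted in limma 3.58.1 (R 4.3.3) with lmFit and eBayes with an intensity trend, on all 12 arrays and with 8 residual degrees of freedom. Tests were two-sided, p-values were adjusted over all genes by Benjamini-Hochberg, and calls were made under an adjusted p of 0.05. Every adjusted p in the text is limma's unless a permutation test is named. The comparisons were the 4 pairs of groups and the interaction, and they share arrays. Each pathway and marker list was read from the same fit. All members are named, and array values are given for called members, the catalytic genes, the activators and the 3 members of smallest p where none was called. The alternatives were other probe sets, normalization, a filter on low values, other estimates of the spread, other samples in the fit, the methods' t-test and leaving out arrays. The members and lists were chosen with earlier results of these data known. The within-array differences and the omission of 2 arrays together, and the values without 1 array for the immunoproteasome genes and the counts below 0, were added after seeing the data. Figures were drawn with matplotlib 3.10.9 (Python 3.11.15).

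Replicate numbers are shared by the groups. The deviations of arrays with the same number from their group means had r of 0.126 to 0.229 in shLFAR1+CCl4 and NC+CCl4, against -0.234 to 0.0932 for other numbers. Deviations within a group cancel out, so these r are tied to each other and do not settle whether the numbers pair the arrays. The labels do not say that they do. The main fit did not pair the arrays, and a fit with the replicate number as a block was an alternative. In the other pairs of groups r was -0.135 to 0.150 for the same number and -0.251 to 0.188 for other numbers.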

Additional observations from a re-analysis of the deposited data

Results flagged for a closer look

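Probe set 1417189_at carries 2 symbols, those of Psme2 and Psme2b, so it stood outside the comparisons of genes, and it gave a signal there. It measured 10.08, 10.38 and 10.10 in NC+CCl4 livers, against 9.69, 9.78 and 9.66 in NC livers, without overlap. The log2 change was 0.476 ± 0.11 (1.39-fold higher, limma adjusted p = 0.0158 over 45037 probe sets). In shLFAR1+CCl4 livers it measured 9.98, 9.86 and 10.14, and in shLFAR1 livers 9.72, 9.83 and 9.72. The log2 change was -0.19 in shLFAR1+CCl4 against NC+CCl4 (adjusted p = 0.538) and 0.24 in shLFAR1+CCl4 against shLFAR1 (adjusted p = 0.526).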

How the results depend on the processing

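In NC+CCl4 against NC the number of proteasome genes called (4) became 9 with array weights (15.5% of all genes called), 1 with only the groups compared in the fit (9.13%), 0 with the methods' t-test and a fold over 1.6 (6.94%), 0 with the methods' t-test after Benjamini-Hochberg (1.54%) and 2 over the 20S and 19S subunits alone. It became 10 without NC+CCl4 replicate 1 and shLFAR1+CCl4 replicate 3, and lay between 0 and 7 when single arrays were left out. Without those 2 arrays, shLFAR1+CCl4 against NC+CCl4 had 3 calls and a median of 0.154, and the median of the interaction was 0.0883. With single arrays left out, shLFAR1+CCl4 against NC+CCl4 had 0 calls each time and medians of 0.0297 to 0.119, shLFAR1+CCl4 against shLFAR1 had medians of -0.158 to -0.0719, shLFAR1 against NC of 0.0119 to 0.0647, and the interaction of -0.00526 to 0.0660. In shLFAR1+CCl4 against shLFAR1 array weights gave 1 call, Psme3. Psmd9 turned to 0.11 (adjusted p = 0.706) in NC+CCl4 against NC when its probe set of largest SD, a dim one, was used. Psmc3ip lost its call in 18 of 25 alternatives, Psmb3 and Psmc1 in 9 of 26 each, and Psmd9 in 7 of 26 beside the turn above. The median of the 41 genes in NC+CCl4 against NC stayed between -0.185 and -0.127 over 27 alternatives.

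With the replicate block 4 genes were called in NC+CCl4 against NC (Psmb3, Psmc1, Psmd4 and Psmd9), and Psmc3ip was lost at an adjusted p of 0.0554. The block changed the count of members called in no other comparison. Over all genes, calls in NC+CCl4 against NC numbered 2378, 280 with the methods' t-test after Benjamini-Hochberg, 1262 with the methods' t-test and fold, and 1263 and 1321 without NC replicates 1 and 2. In shLFAR1+CCl4 against NC+CCl4 they numbered 53, 919 with array weights and 1541 without both arrays named above. In shLFAR1+CCl4 against shLFAR1 they numbered 74, and 375 with array weights, and in the interaction 4, and 393 with array weights. The signal over background of dim probe sets such as that of Psmc3ip is not known from these values, and 3 arrays per group limit every test.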
